A study of Mus musculus with 9 samples.

Results

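ISG15 is a small ubiquitin-like protein that cells attach to other proteins, and the genes for the protein, for the 3 enzymes that attach it and for the protease that takes it off were followed here across 3 culture matrices in the mouse mammary tumor line D2.OR. The 5 genes were chosen by name for these roles: Isg15 itself, the activating (E1) enzyme Uba7, the conjugating (E2) enzyme Ube2l6, the ligase (E3) Herc6 and the protease Usp18. The arrays measured 19938 genes with a probe set of their own. The measured value used in choosing was the mean level over all arrays, which picks among several probe sets of a gene, and each of the 5 genes had 1 probe set. The names were proposed with earlier results of these data known, among them that Usp18 had the largest decrease of all genes in fibrillar collagen, so the Usp18 differences are given as a description and not tested; those from Matrigel share the collagen arrays. Of the 5 genes, 4 are among the 19938. The only one for Isg15 is annotated to Isg15 and also to the pseudogene Gm9706, and its signal cannot be assigned to either, so it is called the Isg15/Gm9706 probe set throughout.

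D2.OR is an established line used to study tumor cells that lie dormant at distant sites. Each group held 3 arrays of cells in 3D culture: a fibrillar collagen I group, a group in collagen I that was not fibrillar, and, by the titles of its samples, a group in Matrigel, which is a basement membrane extract. Pregnancy-induced protection is the subject that the series title connects with fibrillar collagen. Only the titles define the Matrigel group, because the growth text of those arrays repeats the wording for non-fibrillar collagen I, and Matrigel has no place in the overall design text. Those arrays also carry later accession numbers, so any batch that goes with them cannot be told apart from the matrix. Whether replicates came from separate cultures is not labelled, and every p-value therefore measures the spread between these samples alone, which may be technical.

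As background, type I interferon acts through the receptor chains IFNAR1 and IFNAR2 and the kinases JAK1 and TYK2, and the signal reaches target promoters at the interferon-stimulated response element. Isg15 and the genes of its enzymes are among these targets. UBA7 activates ISG15, UBE2L6 carries it, and HERC6 is the main ligase for it in mice, while USP18 removes it and also binds IFNAR2, where it limits signalling. ISG15 is known to be raised in many tumors, breast cancers among them. By the RefSeq table of build GRCm38.p6, Isg15 lies on chromosome 4 (156199424 to 156200818), Uba7 on chromosome 9 (107975567 to 107984056), Ube2l6 on chromosome 2 (84798828 to 84810003), and Herc6 and Usp18 on chromosome 6 (57580992 to 57665136 and 121245906 to 121270917). Gm9706 lies on chromosome 17 (46406981 to 46407624).

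The windows around the start sites of Isg15, Ube2l6 and Herc6 are shown because their probe sets moved the same way between the collagens and only 1 of the windows holds the interferon element. They run from 250 bases before to 50 bases after the start, from RefSeq on build GRCm38.p6, 5′ to 3′ along the gene: Isg15 at chr4:156200769-156201068 (minus strand), Ube2l6 at chr2:84798578-84798877 (plus strand) and Herc6 at chr6:57580742-57581041 (plus strand). Capitals mark matches to the core of the interferon-stimulated response element, which is GAAA, any 2 bases and GAAA again.
Isg15: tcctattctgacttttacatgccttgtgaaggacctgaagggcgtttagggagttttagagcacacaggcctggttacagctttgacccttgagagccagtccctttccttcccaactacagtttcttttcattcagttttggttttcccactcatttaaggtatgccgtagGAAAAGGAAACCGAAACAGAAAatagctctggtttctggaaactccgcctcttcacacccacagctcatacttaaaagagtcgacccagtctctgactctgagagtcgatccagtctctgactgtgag
Ube2l6: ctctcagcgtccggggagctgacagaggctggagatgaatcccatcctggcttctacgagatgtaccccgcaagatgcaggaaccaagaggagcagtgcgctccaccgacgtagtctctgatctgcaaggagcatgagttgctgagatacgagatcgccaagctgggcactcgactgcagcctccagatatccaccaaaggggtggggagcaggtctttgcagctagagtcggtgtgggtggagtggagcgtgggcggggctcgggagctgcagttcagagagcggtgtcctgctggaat
Herc6: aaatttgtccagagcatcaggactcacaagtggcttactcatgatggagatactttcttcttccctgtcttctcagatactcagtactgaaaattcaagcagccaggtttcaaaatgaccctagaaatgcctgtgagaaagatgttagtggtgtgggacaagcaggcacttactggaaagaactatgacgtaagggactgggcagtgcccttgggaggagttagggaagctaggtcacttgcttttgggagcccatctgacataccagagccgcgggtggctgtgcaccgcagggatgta

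The Isg15 window held 3 matches that overlap each other, at bases -78 to -69, -72 to -63 and -66 to -57 from the start, all on the strand shown. Both strands were searched for this core. The Ube2l6, Herc6 and Uba7 windows held no match, which says only that these letters are not in these windows. Usp18 was named only, since the table of windows did not list it. The share of genes with a match to the interferon core was 3.99% of 27025 genes with a window and 50% of the 26 listed interferon-induced effector genes that had a window (13 genes). A match is a description of the letters and not evidence of a bound site.

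Expression of Usp18 was lowest in fibrillar collagen, intermediate in Matrigel and highest in non-fibrillar collagen. Levels are log2 RMA values, on which 1 unit is a doubling, and levels of different probe sets are not set against each other. In fibrillar collagen Usp18 stood at 8.25, 7.81 and 7.97 in replicates 1, 2 and 3. In Matrigel it stood at 8.61, 8.81 and 8.74, and in non-fibrillar collagen at 9.15, 9.34 and 9.52. No 2 groups overlapped, and the gaps between neighbouring groups were 0.37 and 0.34 log2 units, close to the 0.439 and 0.369 that the replicates span within fibrillar and within non-fibrillar collagen. The gene was 2.52-fold lower in fibrillar collagen than in its non-fibrillar form (log2 difference -1.33 ± 0.134 SE, n = 3 arrays per group). Usp18 was 1.64-fold lower in fibrillar collagen than in Matrigel (-0.71 ± 0.119), and 1.53-fold higher in non-fibrillar collagen than in Matrigel (0.62 ± 0.119). In size the differences from Matrigel ranked 41st from the lowest and 71st from the highest of 19938 genes. The SEs give the spread between arrays and do not allow for the choice of Usp18 by its known decrease.

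**Figure D1:**
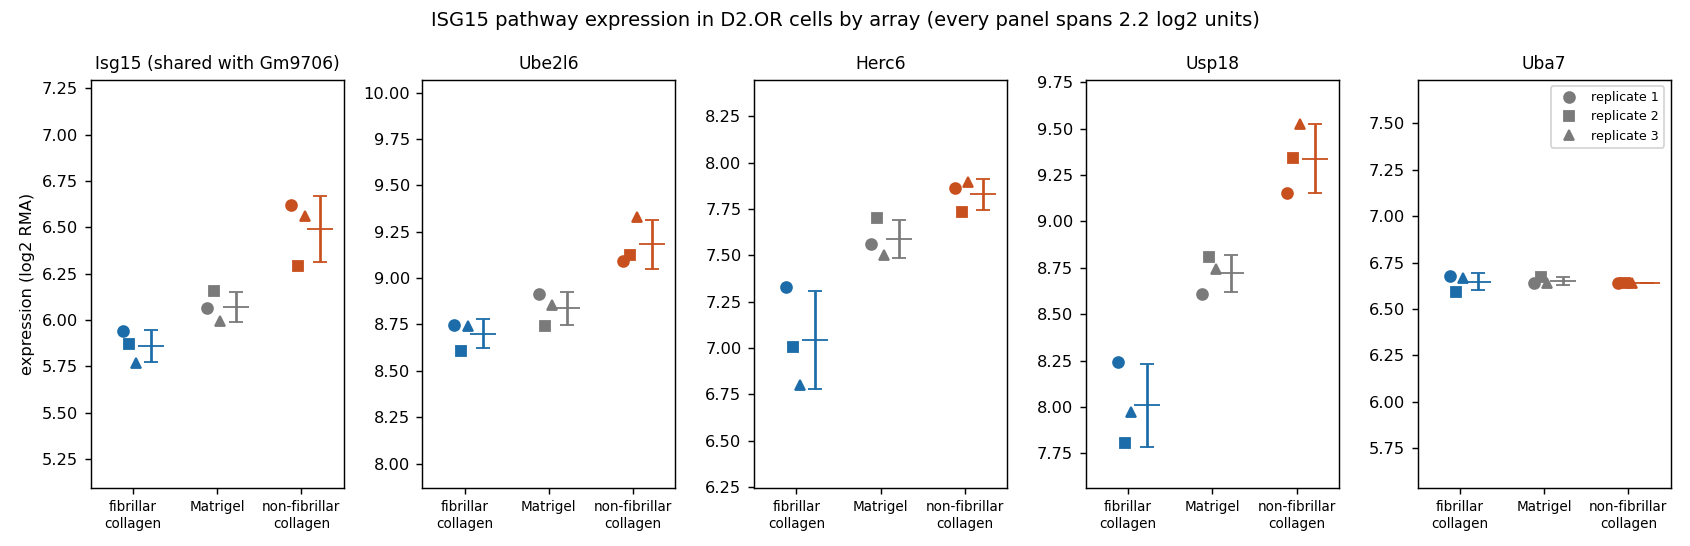
Expression (log2 RMA, vertical axis) of the 5 genes on each of the 9 arrays, by matrix; marker shapes give the replicate number, and bars give the mean ± SD of 3 arrays. Usp18 climbs from 7.81 to 8.25 in fibrillar collagen to 9.15 to 9.52 in non-fibrillar collagen with Matrigel between, whereas Uba7 stays between 6.59 and 6.68 on all arrays; every panel spans the same number of log2 units.

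The ligase gene Herc6 followed the same order. It measured 7.33, 7.01 and 6.80 in fibrillar collagen, 7.56, 7.70 and 7.5 in Matrigel and 7.86, 7.73 and 7.89 in non-fibrillar collagen for replicates 1, 2 and 3, an order kept for the other members. The 3 groups did not overlap, but Matrigel and non-fibrillar collagen were only 0.031 apart, while the fibrillar arrays spanned 0.526. Herc6 was 1.72-fold lower in fibrillar collagen than in its non-fibrillar form (-0.78 ± 0.129, limma adjusted p = 0.023), the 17th lowest difference of all genes. It was 1.46-fold lower in fibrillar collagen than in Matrigel (-0.54 ± 0.116, limma adjusted p = 0.032). Between non-fibrillar collagen and Matrigel the difference of 0.24 ± 0.116 did not pass (limma adjusted p = 0.23, 95% interval -0.02 to 0.50).

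The E2 gene Ube2l6 also had its highest values in non-fibrillar collagen. There it read 9.09, 9.12 and 9.33, against 8.91, 8.74 and 8.85 in Matrigel and 8.74, 8.61 and 8.74 in fibrillar collagen. The non-fibrillar arrays lay above all others, and the fibrillar and Matrigel arrays overlapped by 0.0053 log2 units. Ube2l6 was 1.40-fold lower in fibrillar collagen than in its non-fibrillar form (-0.48 ± 0.0752, limma adjusted p = 0.020) and 1.27-fold higher in non-fibrillar collagen than in Matrigel (0.35 ± 0.0736, limma adjusted p = 0.012). Fibrillar collagen and Matrigel differed by -0.14 ± 0.0736, which did not pass (limma adjusted p = 0.37, 95% interval -0.30 to 0.03).

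The Isg15/Gm9706 probe set also had its lowest values in fibrillar collagen, at 5.94, 5.87 and 5.77, and its highest in non-fibrillar collagen, at 6.62, 6.29 and 6.56, with Matrigel at 6.06, 6.15 and 5.99. The groups did not overlap, though fibrillar collagen and Matrigel were separated by only 0.056. Because it names 2 genes, it was tested in a further fit that kept such probe sets as separate entries (21559 in all), a choice made after the data were seen. In that fit it was 1.55-fold lower in fibrillar collagen than in its non-fibrillar form (-0.63 ± 0.0938, limma adjusted p = 0.019) and 1.34-fold higher in non-fibrillar collagen than in Matrigel (0.42 ± 0.0861, limma adjusted p = 0.011). The difference of -0.21 ± 0.0861 between fibrillar collagen and Matrigel did not pass after adjustment (limma adjusted p = 0.24), while its 95% interval, -0.40 to -0.02, left out 0.

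The E1 gene Uba7 showed no such order. It read 6.68, 6.59 and 6.67 in fibrillar collagen, 6.64, 6.67 and 6.64 in Matrigel and 6.64 on each non-fibrillar array. The groups overlapped, and the differences were 0.01 ± 0.0373 between the collagens, 0.00 ± 0.0386 for fibrillar collagen against Matrigel and -0.01 ± 0.0386 for non-fibrillar collagen against Matrigel (limma adjusted p = 0.92, 0.98 and 0.91). The 95% intervals lay between -0.10 and 0.10 log2 units. Its deposited value was the same to all decimals on 5 of the 9 arrays, as was true of at least 5 arrays for 1889 genes, 9.47% of those tested, and only 1.94% of genes had a smaller SD over the arrays. Whether this probe set can report a change in Uba7 was not tested.

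Between the collagens, 2 of the 3 members other than Usp18 that had a probe set of their own were lower in fibrillar collagen (Ube2l6 and Herc6), 0 were higher and 1 did not pass, where 3.69% of all genes were called lower and 2.71% higher. Groups without overlap, lower in fibrillar collagen, were found for Ube2l6, Herc6 and the Isg15/Gm9706 probe set and not for Uba7, against 13.6% of genes. The differences of Ube2l6, Herc6 and Uba7 were -0.48, -0.78 and 0.01, against a median of 0.008 over all genes. For fibrillar collagen against Matrigel, 1 of these 3 genes was lower (Herc6), with 2.37% of all genes called lower and 1.45% higher. The 3 differed by -0.14, -0.54 and 0.00, against a median of 0.0028. Groups of Herc6 and the Isg15/Gm9706 probe set did not overlap and were lower in fibrillar collagen, against 11.3% of genes. For non-fibrillar collagen against Matrigel, 1 of Ube2l6, Herc6 and Uba7 was higher (Ube2l6), with 6.75% of all genes called higher and 7.07% lower. The 3 differed by 0.35, 0.24 and -0.01, against a median of 0.00061. Groups of Ube2l6, Herc6 and the Isg15/Gm9706 probe set did not overlap and were higher in non-fibrillar collagen, against 14.4% of genes. Usp18 was left out of these counts because it was proposed with its collagen difference known. The comparisons share arrays, and the members were known to belong to the interferon response when they were chosen, so the counts are no independent evidence of a direction. The split of all calls moved with scaling: 42.4% of calls between the collagens were higher, 51.1% after quantile normalization again and 30.3% after centring on array medians. For fibrillar collagen against Matrigel it was 37.9%, and 50.5% after quantile normalization, and for non-fibrillar collagen against Matrigel 48.8%, and 62.8% after centring. The 2, 1 and 1 called members did not change in number under either scaling.

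**Figure D2:**
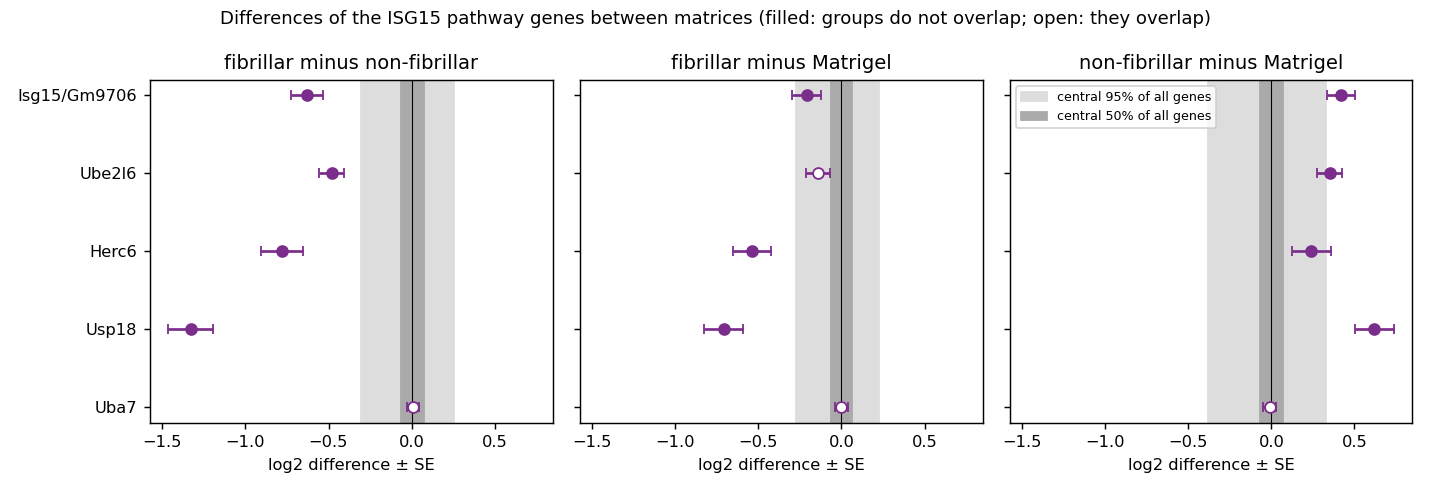
Log2 difference ± SE (horizontal axis, limma, n = 3 arrays per group) of the 5 genes in the 3 comparisons; grey bands hold the central 50% and 95% of all genes, filled points mark genes whose groups do not overlap and open points those that overlap. Between the collagens Usp18 lies at -1.33, Herc6 at -0.78, Ube2l6 at -0.48 and the Isg15/Gm9706 probe set at -0.63, outside the wider band, and Uba7 lies at 0.01.

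Group means of Ube2l6, Herc6 and the Isg15/Gm9706 probe set rose in the order fibrillar collagen, Matrigel, non-fibrillar collagen, which 15.6% of all genes did. Those of Uba7 did not. Usp18 followed the order too, but was proposed with its collagen difference known. Usp18, Herc6 and the Isg15/Gm9706 probe set also had 3 groups without any overlap in this order, which held for 193 of 19938 genes (0.968%). Among 29 measured interferon-induced effector genes, 21 had their means in this order and 7 had no overlap in it (Ifit1, Cmpk2, Rtp4, Bst2, Ifitm3, Trim30a and Nmi). This order was noticed in the data and was not tested.

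The arrays within a group differed in ways that members partly shared. Fibrillar replicate 1 was the highest fibrillar array for all 5 members. For Ube2l6 and Uba7 it was barely above replicate 3 (8.745 against 8.743, and 6.68 against 6.67). The same-numbered collagen pair of replicate 1 differed least for Usp18, by -0.91 against -1.53 and -1.55 in replicates 2 and 3. For Herc6 the same-numbered differences were -0.53, -0.73 and -1.09, and for Ube2l6 -0.35, -0.51 and -0.59. The Isg15/Gm9706 probe set differed by -0.68, -0.42 and -0.79, least in replicate 2. In every pair Usp18, Herc6, Ube2l6 and the Isg15/Gm9706 probe set were lower in fibrillar collagen. Over the 9 arrays Pearson's r between Usp18 and Herc6 was 0.931, between Usp18 and Ube2l6 0.908, and between Usp18 and the Isg15/Gm9706 probe set 0.890, values that include the differences between groups. After subtracting group means the same correlations were 0.551, 0.514 and 0.114. Usp18 and Uba7 correlated at 0.041 over the 9 arrays and at 0.666 after subtraction, above those values. Over all pairs of members the values after subtraction ran from -0.018 (Isg15/Gm9706 with Ube2l6) to 0.701 (Isg15/Gm9706 with Herc6).

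Several calls were lost when 1 array was left out, while the differences kept their sign. Between the collagens Ube2l6 was called only in the refit without non-fibrillar replicate 3, and lost the call without fibrillar replicate 1, 2 or 3 or non-fibrillar replicate 1 or 2 (limma adjusted p up to 0.082, differences -0.53 to -0.41). Herc6 was called only without fibrillar replicate 1 and lost the call without any other collagen array (up to 0.095, differences -0.93 to -0.66). The Isg15/Gm9706 probe set was called only without non-fibrillar replicate 2 (up to 0.092, differences -0.73 to -0.56). Usp18 differed by -1.45 to -1.23 over these refits. Against Matrigel, Herc6 in fibrillar collagen was called only without fibrillar replicate 1 (limma adjusted p up to 0.12, differences -0.68 to -0.42), and also lost the call in a fit of the 6 compared arrays alone (0.10). Usp18 in that comparison differed by -0.83 to -0.61. For non-fibrillar collagen against Matrigel, Ube2l6 lost it only without Matrigel replicate 2 (0.055, difference 0.30), and the Isg15/Gm9706 probe set was called in all 6 refits. Usp18 there differed by 0.53 to 0.71.

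**Figure D3:**
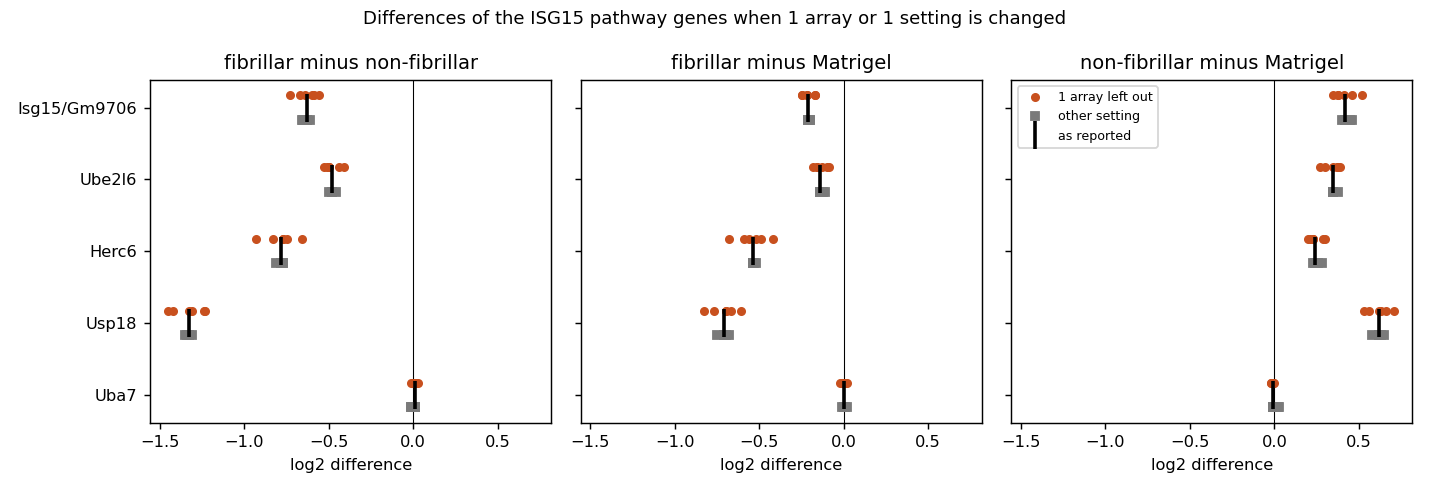
Log2 difference (horizontal axis) of each gene as reported (black bar), with 1 array of the compared groups left out (orange points) and under each other setting (grey squares), in the 3 comparisons. Usp18 stays between -1.45 and -1.23 between the collagens with 1 array left out, and none of the 4 genes other than Uba7 crosses 0.

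Usp18 is 1 of 49 measured genes of the ubiquitin-specific protease family. Of 48 other Usp genes, 0 were higher and 0 lower with limma between the collagens, where 11 had an unadjusted p under 0.05 and differences ran from -0.18 (Usp1) to 0.23 (Usp2). For fibrillar collagen against Matrigel 0 passed with limma, and 6 had an unadjusted p under 0.05. For non-fibrillar collagen against Matrigel, 2 were higher (Usp1 and Usp39) and 1 lower (Usp29). Of all genes, 3.69% were called lower and 2.71% higher between the collagens, and 2.37% and 1.45% for fibrillar collagen against Matrigel. For non-fibrillar collagen against Matrigel these shares were 7.07% and 6.75%. A difference of the family from these shares was not tested, and no share of all genes is given for the unadjusted p. Usp18 had the largest difference of the 49 in all 3 comparisons. Between the collagens this was settled beforehand, because Usp18 was proposed with the largest decrease of all genes known. The Matrigel comparisons share those collagen arrays, so the place of Usp18 in the family is a description only. The family was counted after the values of Usp18 were known.

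Calls among other enzymes that handle ISG15 are given with the shares of all genes, and a difference from those shares was not tested. Between the collagens the shares were 3.69% lower and 2.71% higher. With fibrillar collagen set beside Matrigel they were 2.37% and 1.45%. Of 12 such genes, listed from general knowledge of the pathway (2 further ligases, 2 further E2 enzymes, 7 proteases that can bind ISG15, and Skp2, which takes part in the degradation of USP18), 1 was lower and 0 higher in fibrillar collagen than in its non-fibrillar form, and the median was -0.02. The lower gene was Ube2e1, at 9.01, 9.04 and 9.05 from lowest to highest in fibrillar and 9.22, 9.27 and 9.27 in non-fibrillar collagen (-0.22 ± 0.0341, limma adjusted p = 0.020). Its groups did not overlap, but it kept the call in only 1 of 6 refits with an array left out. Ube2e2, another E2 gene, was at -0.22 ± 0.0536 (adjusted p = 0.068) and the protease gene Usp24 at 0.16 ± 0.0406 (adjusted p = 0.076). Between fibrillar collagen and Matrigel 0 of the 12 passed with limma, and 5 had an unadjusted p under 0.05, among them Usp24 at 0.16 and Ube2e2 at -0.16. Skp2 alone passed between non-fibrillar collagen and Matrigel, higher by 0.29 ± 0.0483 (adjusted p = 0.0035), in all 6 refits. The shares of all genes there were 7.07% lower and 6.75% higher. An unadjusted limma p under 0.05 was found for 5 of the 12 there and for 5 between the collagens. The ligase genes Trim25 and Arih1, named after their values were seen, were at -0.03 ± 0.0651 and 0.02 ± 0.0364 between the collagens. Trim25 ran from 8.94 to 9.08 in Matrigel, above fibrillar (8.71 to 8.89) and non-fibrillar collagen (8.78 to 8.93) without overlap. Neither gene passed against Matrigel, and the Arih1 groups overlapped.

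Of the 4 other Herc genes, which encode ubiquitin ligases of the HECT type, 2 were higher in fibrillar collagen than in its non-fibrillar form: Herc2 by 0.32 ± 0.0423 and Herc1 by 0.25 ± 0.0546 (limma adjusted p = 0.014 and 0.046). Both were lower in non-fibrillar collagen than in Matrigel (-0.31 ± 0.0484 and -0.29 ± 0.0575, limma adjusted p = 0.0024 and 0.0082). Of all genes, 2.71% were called higher in the first of these comparisons and 7.07% lower in the second. Between the collagens Herc1 lost the call whichever array was left out and Herc2 without fibrillar replicate 2 or 3 or non-fibrillar replicate 2, and against Matrigel both kept it in all 6 refits.

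Counts for the other ubiquitin-like modifiers are given beside those of ISG15. Of all genes, 3.69% were called lower and 2.71% higher between the collagens, and 2.37% and 1.45% for fibrillar collagen against Matrigel. For non-fibrillar collagen against Matrigel these shares were 7.07% and 6.75%. A difference of the lists from these shares was not tested. Of 7 measured E1 genes, which include Uba7, 0 passed with limma between the collagens and 0 between fibrillar collagen and Matrigel (3 and 1 had an unadjusted p under 0.05). Only Sae1, part of the E1 enzyme for SUMO, was higher in non-fibrillar collagen than in Matrigel (0.15 ± 0.0428, limma adjusted p = 0.044, lost whichever array was left out). Nae1, part of the E1 enzyme for NEDD8, was at -0.23 ± 0.0596 between the collagens (limma adjusted p = 0.073) and passed there with replicate number as a block, which made the count 1 of 7. Of 20 E2 genes of other modifiers, 2 were lower in fibrillar collagen than in its non-fibrillar form, Ube2a (-0.24 ± 0.0408) and Ube2s (-0.23 ± 0.0417), which kept the call in 1 and 0 of 6 refits. Ube2s missed the threshold with replicate number as a block (limma adjusted p = 0.058), which left 1 of 20. Against Matrigel, Atg3 (-0.29 ± 0.0563) alone was lower in fibrillar collagen, in 3 of 6 refits. In non-fibrillar collagen Ube2s (0.27 ± 0.0418), Ube2n (0.31 ± 0.0765) and Ube2t (0.26 ± 0.059) were higher than in Matrigel and Ube2h (-0.34 ± 0.0638) lower, in 6, 2, 3 and 6 of 6 refits. Among 12 modifier genes, Nedd8 (-0.32 ± 0.0406), Ufm1 (-0.22 ± 0.0359) and Urm1 (-0.21 ± 0.0375) were lower in fibrillar collagen than in its non-fibrillar form, with limma adjusted p = 0.012, 0.023 and 0.029. They kept the call in 2, 1 and 0 of 6 refits. Urm1 was also lower in fibrillar collagen than in Matrigel (-0.27 ± 0.0547, in 1 of 6 refits). Sumo3 was higher (0.22 ± 0.0504) and Gabarap lower (-0.17 ± 0.042) in non-fibrillar collagen than in Matrigel, in 4 and 2 of 6 refits. Ube2n, Ube2t and Gabarap are named after their values were seen. The medians of the E1, E2 and modifier lists between the collagens were -0.09, -0.11 and -0.13, against 0.008 over all genes.

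Genes of the interferon response were counted as the setting in which the ISG15 genes are known to act. Of 29 measured effector genes, 18 were lower and 0 higher in fibrillar collagen than in its non-fibrillar form (median -0.44), and 13 were lower and 0 higher in fibrillar collagen than in Matrigel (median -0.34). Between non-fibrillar collagen and Matrigel 2 were higher and 1 lower (median 0.09). The collagen count was 15, 7 and 6 without fibrillar replicate 1, 2 and 3, and 7, 5 and 7 without non-fibrillar replicate 1, 2 and 3. The count against Matrigel in fibrillar collagen was 7, 9 and 9 without Matrigel replicate 1, 2 and 3, and 15, 8 and 8 without fibrillar replicate 1, 2 and 3. Both counts stand beside the 3.69% and 2.37% of all genes called lower. Between non-fibrillar collagen and Matrigel 6.75% of all genes were called higher and 7.07% lower. A difference from these shares was not tested.

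Gbp3, which encodes a guanylate-binding GTPase, ran from 7.48 to 7.64 in fibrillar collagen, from 8.27 to 8.53 in Matrigel and from 8.29 to 8.47 in non-fibrillar collagen, so its Matrigel and non-fibrillar arrays overlapped. Oas1a, an oligoadenylate synthetase gene, ran from 7.65 to 7.72, from 7.71 to 7.88 and from 8.21 to 8.43, so its fibrillar and Matrigel arrays overlapped, as those of Ube2l6 did. Against Matrigel, Gbp3 was lower in fibrillar collagen (-0.85 ± 0.0766, limma adjusted p = 0.00052) and Oas1a was higher in non-fibrillar collagen (0.50 ± 0.065, limma adjusted p = 0.00098), both in all 6 refits. Probe sets of the Gbp and Oas families may read related copies, so these single genes are uncertain.

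Among 19 measured genes of interferon receptor signalling, Irf7, a transcription factor that drives interferon genes, was called in all 3 comparisons. It ran from 7.29 to 7.44 in fibrillar collagen, from 7.94 to 8.15 in Matrigel and from 8.22 to 8.49 in non-fibrillar collagen, without overlap and in the order shown by Usp18. It was lower in fibrillar collagen than in Matrigel (-0.66 ± 0.0824, limma adjusted p = 0.0029, in all 6 refits), and higher in non-fibrillar collagen than in Matrigel by 0.29 ± 0.0824 (adjusted p = 0.047). The last call was kept in 1 of 6 refits. Over the list, 3 genes were lower and 1 higher between the collagens, against 3.69% and 2.71% of all genes. Of the lower genes Irf9 missed with replicate number as a block (limma adjusted p = 0.064). For fibrillar collagen against Matrigel 2 were lower and 0 higher, against 2.37% and 1.45%. For non-fibrillar collagen against Matrigel 3 were lower and 3 higher, against 7.07% and 6.75%. The receptor genes Ifnar1 and Ifnar2 were named after their values were seen. Between the collagens they were at 0.02 ± 0.0351 and -0.06 ± 0.0457 (limma adjusted p = 0.77 and 0.52). Ifnar1 ran from 9.14 to 9.34 in Matrigel, against 9.13 on each fibrillar array and 9.08 to 9.15 in non-fibrillar collagen. Neither receptor gene passed against Matrigel. The kinase gene Jak1 was lower in non-fibrillar collagen than in Matrigel (-0.31 ± 0.0496, adjusted p = 0.0029), and the phosphatase gene Ptpn2 was higher there (0.38 ± 0.0779, adjusted p = 0.010). The interferon lambda receptor gene Ifnlr1 was lower in non-fibrillar collagen than in Matrigel (-0.30 ± 0.0491, adjusted p = 0.0031).

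Of 15 measured interferon genes, 0 passed with limma between the collagens and 0 between fibrillar collagen and Matrigel (3 and 2 had an unadjusted p under 0.05, all at higher values in fibrillar collagen). With replicate number as a block 2 were higher between the collagens, Ifna2 and Ifnz. Ifna11 alone was lower in non-fibrillar collagen than in Matrigel (-0.34 ± 0.0835, adjusted p = 0.025, in 2 of 6 refits). It read 3.10 to 3.71 over all arrays, under the level of 5 below which genes were left out as dim in an alternative, so whether this is signal or background was not tested. In all, 7 of the 15 interferon genes had a mean under 5. Ifnb1, which encodes interferon beta and was named after its values were seen, ran from 4.44 to 4.62 in fibrillar collagen, from 4.38 to 4.50 in Matrigel and from 4.50 to 4.85 in non-fibrillar collagen. Those groups overlapped. Of 12 sensors of nucleic acids, 4 were lower between the collagens: Zbp1 (-0.83 ± 0.131), the RNA helicases Ifih1 (-0.56 ± 0.0729) and Dhx58 (-0.51 ± 0.0911), and the endosomal RNA receptor Tlr3 (-0.26 ± 0.0426), with limma adjusted p = 0.021, 0.013, 0.029 and 0.023. They kept these calls in 0, 1, 1 and 0 of 6 refits. Tlr3 and Zbp1 were also lower in fibrillar collagen than in Matrigel (-0.31 ± 0.0432 and -0.57 ± 0.111, limma adjusted p = 0.0052 and 0.023), in 6 and 1 of 6 refits. Of all genes, 3.69% were called lower and 2.71% higher between the collagens, and 2.37% and 1.45% for fibrillar collagen against Matrigel. For non-fibrillar collagen against Matrigel these shares were 7.07% and 6.75%.

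**Figure D4:**
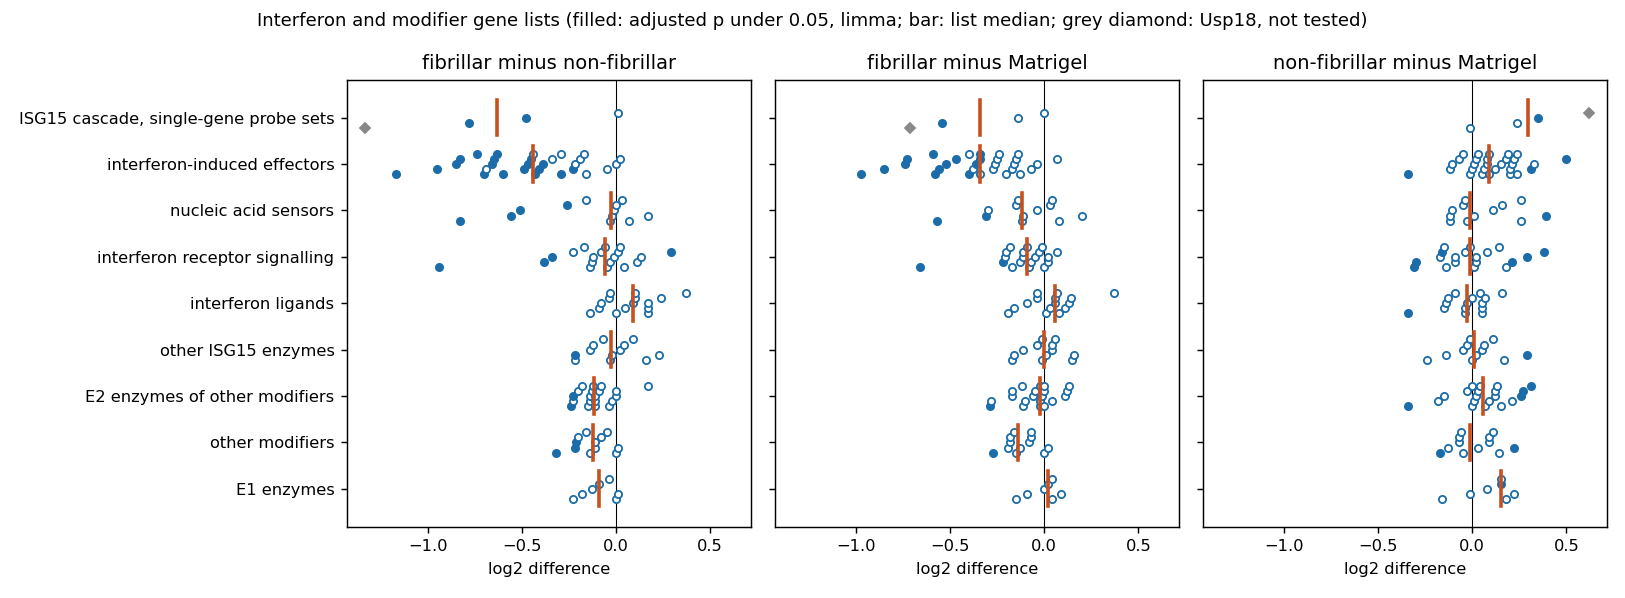
Log2 differences (horizontal axis) of single genes in 9 gene lists for the 3 comparisons. Filled points passed limma at an adjusted p of 0.05, and open points did not. Usp18 is a grey diamond because it was not tested. Orange bars are list medians, and that of the ISG15 cascade includes Usp18, which was proposed with its collagen difference known. In the collagen comparison 18 of 29 effector genes are filled and lie below 0, against 3.69% of all genes called lower. The lists of other modifiers have medians of -0.09 to -0.13 there.

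The 8 mammary epithelial markers were mixed in level, over array medians of 5.98 to 6.05. The luminal keratin genes Krt8 and Krt18 read 13.12 to 13.33 and 12.60 to 12.92, the basal keratin gene Krt14 11.21 to 11.56 and Cdh1, for E-cadherin, 9 to 9.12. Epcam (5.84 to 6.24), Krt5 (5.55 to 5.87) and Krt19 (5.14 to 5.45) lay near or below the array medians. Krt14 was lower than in Matrigel in fibrillar collagen (-0.17, in 1 of 6 refits) and in non-fibrillar collagen (-0.30, in 6 of 6). Krt18 was higher than in Matrigel in both (0.23 and 0.28), and Epcam in non-fibrillar collagen (0.28). Krt7, another luminal keratin gene, was lower in fibrillar collagen than in its non-fibrillar form (-0.30) and higher than in Matrigel in both collagens (0.90 and 1.20). Of 11 leukocyte marker genes, 0 passed with limma in the 3 comparisons (0, 0 and 1 had an unadjusted p under 0.05), with differences from -0.18 to 0.12. Their mean level ran from 4.96 to 5 in fibrillar collagen, 4.95 to 4.97 in Matrigel and 4.93 to 4.97 in non-fibrillar collagen. Ptprc, the pan-leukocyte CD45 gene, read 4.72 to 5.12. The fibroblast and endothelial list had Pdgfra higher in fibrillar collagen than in its non-fibrillar form (0.67, 1 of 9 genes, in 2 of 6 refits; 2 of 9 with replicate number as a block, Kdr added), and Pdgfra and Kdr lower in non-fibrillar collagen than in Matrigel. The mean level of the 9 ran from 6.09 to 6.13 in fibrillar collagen, 6.10 to 6.18 in Matrigel and 5.93 to 6.02 in non-fibrillar collagen. These means cover mixed levels. Pdgfra read 10.12 to 11.36 over all arrays and Col1a1, named after its values were seen, 8.55 to 8.73, while 4 of the 9 had a mean under 5. The part of other cell types in the ISG15 gene differences was not tested, and in bulk RNA fewer cells of a type and less RNA per cell cannot be told apart.

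The genes most like each member over the 9 arrays were taken by Pearson's r, a description that includes the differences between groups. For Usp18 they were Ifi203 and Ogfr (both 0.984), Amz2 (0.980), Mrps31 (0.979) and Paip2 (0.974). For Herc6 they were Snx7 (0.986), Dohh (0.976), Sh3tc2 (0.971), Sp100 (0.969) and Malsu1 (0.968). Sp100 also stood among the 5 of the Isg15/Gm9706 probe set (0.959), after Rarb (0.986) and Rangrf (0.966) and with Lcmt1 (0.959) and Ociad1 (0.958). For Ube2l6 they were Reep5 (0.993), Trappc1 and Mecr (both 0.992), Cd151 (0.986) and Cebpzos (0.983). A lower cut of 0.9 was reached by 173 of 19932 genes with Usp18, 272 with Ube2l6, 85 with Herc6 and 9 with Uba7. With the Isg15/Gm9706 probe set 95 of 19933 genes reached it. The closest to Uba7 were Spg7 (0.979), Cage1 (0.976), Spink12 (0.959), Defb40 (0.952) and Smim9 (0.929), over the 9 arrays of which 5 held 1 Uba7 value.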

How the data were processed

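RNA of D2.OR cells was measured on 9 arrays, 3 per group. Total RNA was extracted with Trizol and labelled as biotinylated cRNA, per the labels' protocols. The deposited log2 values were made by the authors with RMA in Affymetrix Power Tools, per the submitters' processing notes; their versions are not given in the sources here, nor whether all arrays were normalized in 1 run. They ran from 2.11 to 14.08, with column medians of 5.98 to 6.05. RMA subtracts background and equalizes array distributions, which can hide a shift of all genes, and compresses differences of dim probe sets.

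Of 35512 probe sets, 21789 had 1 gene symbol in the platform annotation, 1621 had several and 12102 had none listed. The probe set with the highest mean stood for each of 19938 genes. Differences were fitted by lmFit and eBayes of limma 3.58.1 (R 4.3.3), with Benjamini-Hochberg adjustment over all genes, called at 0.05. The collagen comparison used its own 6 arrays and the Matrigel comparisons all 9. An exact permutation test of 3 arrays against 3 cannot go below 0.10. Precision is limited by the number of arrays. The fitting code was tested on simulated data.

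Deviations from group means of same-numbered collagen arrays correlated at r = 0.221, 0.143 and 0.242, above a cut of 0.1. Arrays of different numbers were not compared, so whether the numbers mark pairs was not tested, and the labels do not say so. Fibrillar collagen and Matrigel gave 0.253, 0.103 and 0.0968, and non-fibrillar collagen and Matrigel 0.125, 0.0449 and 0.135. Because 1 value of each fell under the cut, the Matrigel numbers were not taken to pair.

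The members and gene lists were chosen with earlier results of these data known. Named were the members, up to 4 genes per list with the smallest p, genes called in all 3 comparisons and the 5 genes most correlated with each member. Alternatives covered centring, normalization, a dim filter, probe set averaging, priors, array weights, the arrays in the fit, the replicate block, each array left out, and shared probe sets kept (chosen after seeing the data).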

Additional observations from a re-analysis of the deposited data

How the results depend on the processing

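Of 180 differences of the 4 genes other than Usp18 under an alternative, 158 stayed on their side of the threshold, 22 lost the call, and 0 called differences reversed. The 158 include differences that were not called as reported and had no call to lose. With 1 array left out, Isg15/Gm9706, Ube2l6 and Herc6 each lost the collagen call in 5 of 6 refits. Herc6 lost its call for fibrillar collagen against Matrigel in 5 of 6. For non-fibrillar collagen against Matrigel, Ube2l6 lost it in 1 of 6 and Isg15/Gm9706 in 0. Uba7, never called, took both signs near 0. Leaving out 1 array moved the calls over all genes from 1277 to between 150 and 569 for the collagens, from 762 to between 353 and 513 for fibrillar collagen against Matrigel, and from 2755 to between 1814 and 2492 in the remaining comparison, non-fibrillar collagen against Matrigel. Members called, Usp18 left out (2, 1 and 1), came to between 0 and 1 in each comparison. The fit of the 6 compared arrays gave 460 calls over all genes and 0 called members for fibrillar collagen against Matrigel. With the replicate block the collagen comparison had 1285 calls and 2 called members, and the Matrigel comparisons 1020 and 3244 calls with 1 called member each, so the block changed no member's call. In the Matrigel comparisons, whose numbers were not taken to pair, the block gave 17 lower effector genes in fibrillar collagen, and 5 higher and 1 lower in non-fibrillar collagen, where Irf7 (limma adjusted p = 0.065), Sae1 (0.064) and Usp39 missed and Usp2, Usp14 and Usp38 passed, for 2 higher and 3 lower Usp genes. Quantile normalization again gave 640 higher and 612 lower calls for the collagens and 373 higher and 366 lower for fibrillar collagen against Matrigel. Centring gave 421 higher and 968 lower for the collagens and 1841 higher and 1092 lower for non-fibrillar collagen against Matrigel. The cause of these shifts was not tested, except that leaving out an array leaves fewer arrays.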
